A study of Mus musculus with 20 samples.

Results

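The choroid plexus is the frond of tissue inside each brain ventricle whose epithelium secretes cerebrospinal fluid. Its epithelial cells carry ion transporters and water channels for that secretion, move folate from blood to fluid, and make transthyretin (Ttr) in very large amounts, so that a little of this tissue can be seen in RNA from a neighbouring brain region. The striatum borders the lateral ventricle, where a choroid plexus lies. The 9 genes described here, Ttr, Kl, Folr1, Aqp1, Clic6, Slc4a5, Otx2, F5 and Tmem72, were chosen by symbol as markers of that epithelium, and all 9 were found among the 39179 genes listed for each mouse. They are followed from mouse to mouse as a sign of choroid plexus in the dissected tissue.

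RNA was sequenced from the bilateral striatum, dorsal and ventral, of 20 male mice about 6.5 months old, from generation 17 of a breeding experiment that began from an intercross of inbred strains. The High-Active line was selected for home cage activity and the Control line was its unselected counterpart. Within each line, 5 mice received amphetamine (the d-isomer as its sulfate, 0.25 mg/kg) and 5 received its saline vehicle, by intraperitoneal injection, and tissue was taken 2 h later. All 20 mice had been tracked for home cage activity before the injection, and the mice came from 13 pairs of parents, 8 of the Control and 5 of the High-Active line, so that mice of a line were not all unrelated. These families are read from the sire and dam numbers in the labels, which conflict with the study's text, where no shared family is described. Each mouse is 1 library, named below by its animal number, and each line is 1 selected population. The depth on genes was 32388971 to 53710713 counts per mouse, and values are given as CPM, the count of a gene per 1000000 counts on genes in the same mouse. At the lowest of these depths 3 counts are 0.0926 CPM. Markers of striatal projection neurons summed to 4429 to 6948 CPM per mouse, a range of 1.57-fold, and were present in every library.

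Ttr, the carrier of thyroid hormone and retinol-binding protein that choroid plexus secretes into the fluid, differed more between mice than almost any other gene. It lies on chromosome 18 (GRCm38, chr18:20665280-20674321, plus strand). In the Control saline mice Ttr was 1.03 CPM in mouse 411, 11.7 in mouse 477, 103 in mouse 448, 108 in mouse 883 and 662 in mouse 469. In the Control amphetamine mice it was 0.954 CPM in mouse 409, 6.72 in mouse 454, 17.1 in mouse 407, 51.3 in mouse 457 and 213 in mouse 369. Mouse 469 stood highest among the Control mice, and the ranges of both Control groups overlapped over most of their length.

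In the High-Active saline mice Ttr was 1.39 CPM in mouse 483, 3.92 in mouse 886, 114 in mouse 499, 555 in mouse 197 and 752 in mouse 871. In the High-Active amphetamine mice it was 7.02 CPM in mouse 872, 7.46 in mouse 905, 10.5 in mouse 192, 60.3 in mouse 415 and 842 in mouse 487. Each of the 4 groups therefore held mice with little Ttr and at least 1 mouse with over 200 CPM. The lowest and the highest library, of 33 and 45239 counts, differed 883-fold (95% counting interval 629 to 1283), and the highest gave 0.0842% of all counts of that mouse to Ttr. These intervals cover counting error only.

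**Figure D1:**
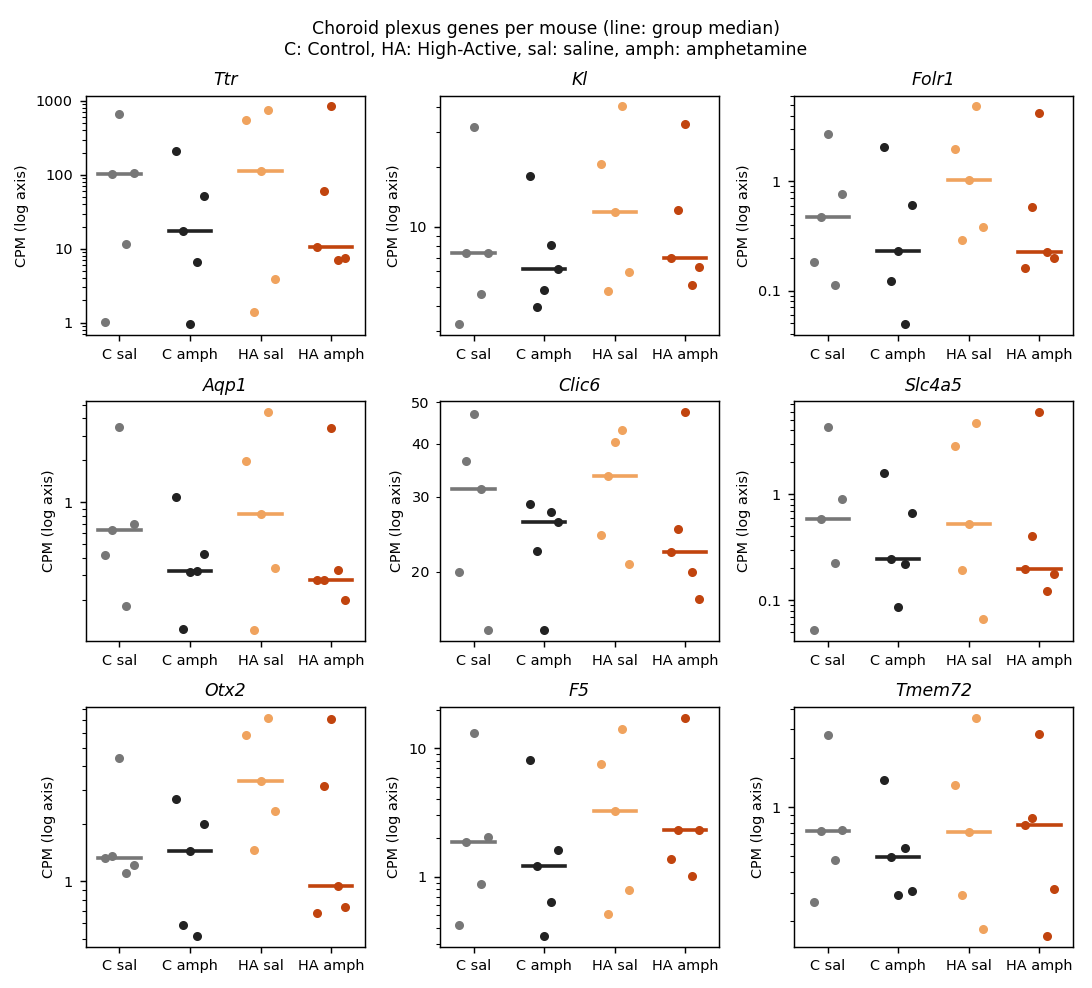
CPM of each of the 9 genes (log axis, a separate scale for each gene) in the 20 mice, split into the 4 groups of line and treatment, with a point for each mouse and a bar at the group median. The groups overlap for every gene, and Ttr runs from 0.954 to 842 CPM.

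The spread lay inside the groups. The within-group SD of Ttr was 3.43 on the log2 CPM scale, the 4th largest of the 14792 genes that exceeded 1 CPM in at least 3 mice, where the median gene had 0.156. Slc4a5 had an SD of 1.98, F5 of 1.76 and Folr1 of 1.69, which ranked 80th, 108th and 120th. Aqp1 (1.50), Tmem72 (1.30), Kl (1.12) and Otx2 (1.08) fell within the first 300 ranks, and Clic6, at 0.53, ranked 1159th. So 8 of the 9 genes were among the 2% of genes with the most spread between mice of a group.

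Sharing both parents did not go with a smaller difference in Ttr. Among the 8 pairs of mice that shared both parents, the median difference in Ttr was 3.97 on the log2 CPM scale, against 3.44 for the 82 pairs of the same line with other parents and 3.22 for the 100 pairs across lines. These pairs share mice and are given as a description. Mice 409 and 411, of the same parents, differed by 1.08-fold and were the lowest of all 20 mice, whereas 483 and 487, also of the same parents, differed 607-fold, and 871 and 872 differed 107-fold. The saline mouse was the higher in the pairs 411 and 409, 448 and 407, 197 and 905, 499 and 872, and 871 and 872. The amphetamine mouse was the higher in 483 and 487 and in 886 and 415. Mice 499 and 871 both received saline.

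**Figure D2:**
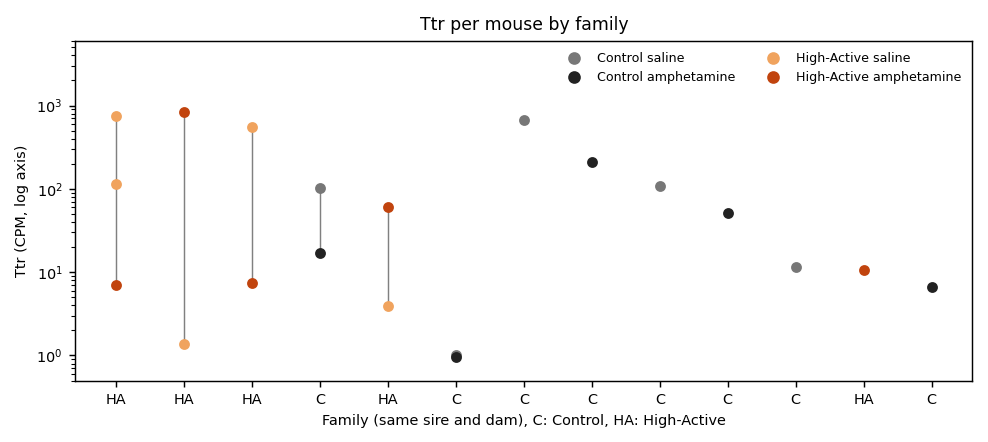
Ttr per mouse (CPM, log axis) by pair of parents, each column being 1 family of the Control (C) or High-Active (HA) line, with mice of the same parents joined by a line and colours for line and treatment. The family with 483 and 487 spans 1.39 to 842 CPM, and the one with 409 and 411 holds both lowest values.

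Among the transporters and channels, Slc4a5 followed Ttr closely, Aqp1 less closely and Clic6 least. Slc4a5, a sodium bicarbonate cotransporter of the epithelium (chr6:83219828-83304945, plus strand), was low in mice with little Ttr. In Control saline mice Slc4a5 was 0.0526 CPM in mouse 411, 0.226 in 477, 0.579 in 448, 0.902 in 883 and 4.26 in 469, the same order as Ttr. In Control amphetamine mice it was 0.0867 CPM in 409, 0.221 in 454, 0.247 in 407, 0.661 in 457 and 1.59 in 369, again in the order of Ttr. In High-Active saline mice it was 0.0676 CPM in 886, 0.195 in 483, 0.525 in 499, 2.83 in 197 and 4.71 in 871, and in High-Active amphetamine mice 0.122 in 872, 0.179 in 905, 0.199 in 192, 0.401 in 415 and 5.90 in 487. The highest mouse had 112 times the level of the lowest, but the lowest level rests on 2 counts, so the counting interval of that ratio runs from 30.8 to 930.

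Aqp1, the water channel of the apical membrane (chr6:55336432-55348555, plus strand), ranged from 0.122 CPM in mouse 483 to 4.42 in mouse 871, with a median of 0.379. Its highest values in the 4 groups were 3.49 CPM in mouse 469, 1.09 in mouse 369, 4.42 in mouse 871 and 3.43 in mouse 487, the mouse with the most Ttr in each group. Clic6, a member of the chloride intracellular channel family (chr16:92485736-92541243, plus strand), was different: no mouse had less than 14.6 CPM and none more than 47.4, a range of 3.25-fold (2.98 to 3.55). In Control saline mice Clic6 was 14.6 CPM in 883, 20.0 in 411, 31.3 in 477, 36.4 in 448 and 46.9 in 469, so mouse 883, with 108 CPM of Ttr, was the lowest of all. In High-Active saline mice it was 20.8 CPM in 886, 24.4 in 197, 33.6 in 483, 40.3 in 499 and 43.1 in 871, where mouse 483 had more than mouse 197 despite 1.39 against 555 CPM of Ttr. In Control amphetamine mice it was 14.6 to 28.8 CPM, and in High-Active amphetamine mice 17.2 to 25.2 in all but mouse 487, at 47.4.

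Folr1, the folate receptor through which the epithelium carries folate into the fluid (chr7:101858331-101870788, minus strand), ranged from 0.0492 CPM in mouse 454, on 2 counts, to 4.86 in mouse 871, a ratio of 98.7 with a counting interval of 26.9 to 822. Its group medians were 0.469 CPM in Control saline, 0.231 in Control amphetamine, 1.03 in High-Active saline and 0.224 in High-Active amphetamine mice, and its ranges overlapped between all groups. Kl encodes Klotho, the coreceptor for the hormone FGF23, which is also shed into the fluid (chr5:150952607-150993817, plus strand). Kl was 3.24 CPM in mouse 411 at the lowest and 40.2 in mouse 871 at the highest, 12.4-fold apart (10.3 to 15.1), and the other mice above 20 CPM were 487 at 33.0, 469 at 31.7 and 197 at 20.7.

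Otx2 encodes the homeodomain factor that specifies and maintains choroid plexus epithelium (chr14:48657677-48673819, minus strand). In Control saline mice Otx2 was 1.11 CPM in 477, 1.22 in 883, 1.32 in 411, 1.35 in 448 and 4.43 in 469, so that 4 mice were alike over a wide range of Ttr. In Control amphetamine mice it was 0.517 CPM in 454, 0.586 in 407, 1.45 in 409, 1.98 in 457 and 2.71 in 369. In High-Active saline mice it was 1.46 CPM in 483, 2.34 in 886, 3.34 in 499, 5.85 in 197 and 7.15 in 871. In High-Active amphetamine mice it was 0.677 CPM in 192, 0.736 in 905, 0.938 in 872, 3.15 in 415 and 7.09 in 487. The High-Active saline values lay above every Control saline value but that of mouse 469. Exons of Otx2 overlap Otx2os1 on the opposite strand and Gm49154 on the same strand, and whether the counting used strand is not given in the sources used here, so some of its reads may belong to either.

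Promoter windows on the chromosome of Ttr were left out for the 9 genes, but not from the windows of all genes. Windows of 300 bases were then used for 6 of the 9 genes, in 9 windows. The 250 bases before the start were searched in each for TAATCC on both strands, the core sequence that Otx2 and related homeodomain factors recognize. The motif was present in 1 of the 9 windows, against 6.25% of the 32851 windows of all genes, and that window is one of 4 listed starts of Otx2 itself. The 30 bases around it are shown because it is the only match, with the motif, read here as its reverse complement GGATTA, in capitals (RefSeq, GRCm38.p6, chr14:48665303-48665332, minus strand, beginning of the motif 211 bases before the start).
Otx2 window: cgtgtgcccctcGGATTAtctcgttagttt
These bases also lie in a 5′ untranslated exon of other Otx2 transcripts. A match of 6 bases describes the sequence only.

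F5 encodes coagulation factor V, made in this epithelium as well as in liver (chr1:164151838-164220277, plus strand). F5 ranged from 0.347 CPM in mouse 409 to 17.1 in mouse 487, 49.4-fold (28.1 to 95.9), and was above 7 CPM in the 5 mice with the most Ttr, at 17.1, 14.0, 13.2, 7.48 and 8.17 CPM in mice 487, 871, 469, 197 and 369. Every other mouse had at most 3.27 CPM. The antisense transcript Gm16548 overlaps an exon of F5. Tmem72, a transmembrane protein of little known function (chr6:116679063-116716913, minus strand), ranged from 0.163 CPM in mouse 872 to 3.52 in mouse 871, 21.6-fold (10.6 to 51.1).

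Per kilobase of merged exon, the scale on which genes can be set against each other, Ttr led in the highest mice and not in the lowest. The highest values over the 20 mice were 710 CPM per kb for Ttr, 12.1 for Clic6, 4.31 for Kl, 2.31 for F5, 2.11 for Folr1, 1.69 for Otx2, 1.68 for Aqp1, 1.02 for Slc4a5 and 0.205 for Tmem72. The lowest values were 3.72 CPM per kb for Clic6, 0.804 for Ttr, 0.347 for Kl and 0.122 for Otx2, with the other 5 genes at most 0.0467. Clic6 was thus the most abundant of the 9 where Ttr was scarce.

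The summed level of the 9 genes ran from 23.1 to 963 CPM over the 20 mice with a median of 69.9. The group medians were 136 CPM in Control saline, 46.3 in Control amphetamine, 176 in High-Active saline and 43.3 in High-Active amphetamine mice, and the highest mouse of each group had 771, 277, 874 and 963 CPM. Without Ttr the sum ran from 22.1 to 122 CPM. In bulk tissue, fewer cells of a type and less RNA per cell cannot be told apart, so these sums are levels of RNA, not numbers of cells.

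The same few mice were high for most of the genes. Mice 487, 871 and 469 were among the 4 highest mice for all 9 genes. Mouse 197, 4th for Ttr, was among the 4 highest for 5 genes and among the 5 highest for 8. These 4 mice came from 3 of the 4 groups and from 4 families, and the mouse ranking 5th for Ttr, 369, belonged to the remaining group. In a second list of 36 other choroid plexus genes, the same 4 mice were among the 4 highest for 31, 34, 30 and 26 genes, in the order 487, 871, 469 and 197. This list, like the 9 genes and the other marker lists used below, was chosen with earlier results of these data known. It is therefore not independent evidence.

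Across the 20 mice, log2 CPM of each of the other 8 genes rose with that of Ttr. Pearson's r was 0.95 for Slc4a5, 0.94 for F5, 0.88 for Kl, 0.87 for Tmem72, 0.85 for Folr1, 0.83 for Aqp1, 0.72 for Otx2 and 0.60 for Clic6, and Spearman's rho lay between 0.61 and 0.96. The permutation p (2-sided, 100000 resamples, n = 20 mice, 8 relations) was at most 0.0053 before and after Benjamini-Hochberg adjustment for r and at most 0.00483 for rho, and its smallest value was 1e-05, the smallest these resamples can give. Mice of the same parents among the 20 make these p values less exact than unrelated mice would.

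Within lines, r ran from 0.57 (Otx2) to 0.97 (Slc4a5) in the 10 Control mice and from 0.61 (Clic6) to 0.97 (Kl) in the 10 High-Active mice. Clic6 missed 0.05 in both lines (permutation p = 0.0736 and 0.064) and Otx2 in Control mice (permutation p = 0.0857). Leaving out the 2 mice farthest from the median of Ttr left r between 0.46 (Clic6, permutation p = 0.0531) and 0.94. Leaving out the 4 mice with the most Ttr, a choice made after their values were seen, left r at 0.91 for Slc4a5, 0.89 for F5, 0.75 for Kl, 0.74 for Tmem72, 0.69 for Folr1 and 0.62 for Aqp1. For Otx2 and Clic6 it left 0.38 and 0.37, with permutation p of 0.146 and 0.155, so their relation rests on those mice.

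**Figure D3:**
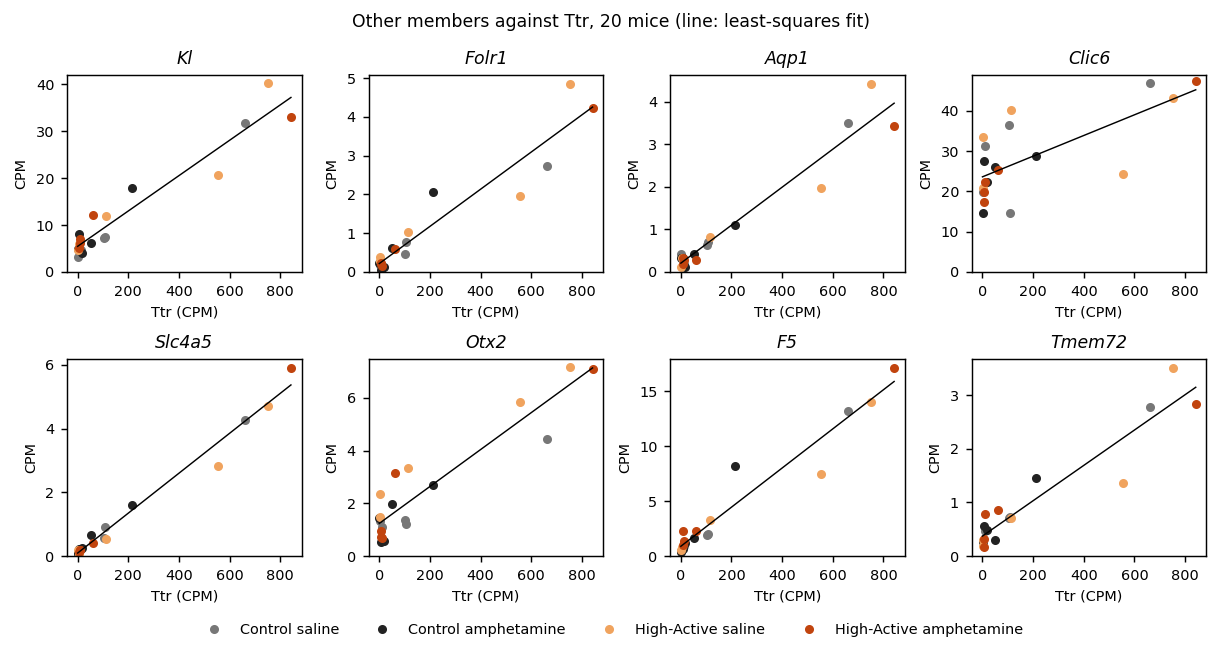
CPM of the other 8 genes against CPM of Ttr (linear axes), 1 point per mouse, coloured by group, with a least-squares line over the 20 mice. Slc4a5 lies close to its line, which starts near 0, whereas the line of Clic6 starts at 23.6 CPM.

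On the linear CPM scale the genes divided by how much remained where Ttr was near 0. A least-squares line over the 20 mice gave Slc4a5 an intercept of 0.0935 ± 0.0651 CPM (SE) and a slope of 6.26 ± 0.201 CPM per 1000 CPM of Ttr. For Clic6 the intercept was 23.6 ± 1.98 CPM and the slope 25.6 ± 6.09 CPM. Kl had an intercept of 5.47 ± 0.808 CPM with a slope of 37.7 ± 2.49, the steepest of the 8. The other intercepts were 1.24 CPM for Otx2, 0.888 for F5, 0.373 for Tmem72, 0.218 for Folr1 and 0.208 for Aqp1. In the 4 mice with the most Ttr, the ratio of each gene to Ttr stayed within 1.37-fold (Slc4a5) to 1.90-fold (Tmem72). Ttr itself ran only from 555 to 842 CPM in these mice, so a gene that did not follow it could also keep its ratio there. Over all 20 mice the ratio was not steady. Per 1000 CPM of Ttr it ran from 4.61 to 140 CPM for Slc4a5, 37.3 to 5030 for Kl and 43.9 to 24175 for Clic6.

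To test this across all genes, log2 CPM of Ttr was added to the 4 group means as a covariate, which asks what followed Ttr among mice of the same line and treatment. Of the other 14791 genes, 81 rose with Ttr (0.548%; edgeR's quasi-likelihood test, Benjamini-Hochberg adjusted p under 0.1) and 5 fell. Of the other 8 choroid plexus genes, 7 rose. The log2 change per doubling of Ttr was 0.65 ± 0.044 for Slc4a5 (SE; adjusted p = 8.58e-08), 0.52 ± 0.038 for F5 (adjusted p = 1.94e-07), 0.49 ± 0.055 for Folr1, 0.41 ± 0.056 for Aqp1, 0.36 ± 0.046 for Tmem72, 0.30 ± 0.033 for Kl and 0.24 ± 0.046 for Otx2 (adjusted p = 0.0289). Clic6 had 0.09 ± 0.028 and an adjusted p of 0.222. The median over the 8 genes was 0.39.

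Slc4a5, Aqp1, Tmem72 and Folr1 exceeded 1 CPM in only 5, 5, 5 and 6 mice, so that they passed the filter through the mice with much Ttr; without any filter 7 of the 8 genes again rose, among 26115. The number of genes that changed with Ttr in either direction, 86, depended on single mice: it was 45, 33, 189, 47, 56, 53, 37, 34 and 49 without mouse 411, 469, 477, 369, 197, 483, 871, 487 and 905 in turn. Otx2 no longer passed without mouse 469 (adjusted p = 0.145) or mouse 487 (adjusted p = 0.143), and Clic6 passed without mouse 883 (adjusted p = 0.0856). Without all 4 mice with the most Ttr, over the same genes, 3 of the 8 rose: Slc4a5 by 0.48, F5 by 0.45 and Kl by 0.21 per doubling, among 8 genes called in all.

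Of the 36 other choroid plexus genes 30 were tested and 18 rose with Ttr, against 0.548% of all genes, with a median slope of 0.16. Without the 4 mice with the most Ttr, over the same genes, 4 of the 30 rose, with a median slope of 0.09. Kcne2, a potassium channel subunit, had the steepest slope in the list at 0.83 per doubling of Ttr. Cldn2, the claudin of the leaky tight junctions of the epithelium, had 0.66. Kcne2 exceeded 1 CPM only in the 4 mice with the most Ttr, and Cldn2 only in those mice and mouse 369. Both therefore passed the filter through mice with much Ttr. Without any filter 23 of the 36 genes rose. Of the 5 most abundant genes of that list, Enpp2 (autotaxin), at 133 to 529 CPM, rose by 0.16 per doubling. Htr2c, a serotonin receptor, had 0.01 (adjusted p = 0.755), Trpm3, a cation channel, 0.02 (adjusted p = 0.585), Ace, the angiotensin converting enzyme, 0.05 (adjusted p = 0.335), and Car12, a carbonic anhydrase, -0.05 (adjusted p = 0.196).

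No gene of 7 lists for other cell types passed in the same fit. Of 10 ependymal genes tested 0 passed, with a median slope of 0.10, but all 10 slopes were above 0 and 8 had an unadjusted p under 0.05, against 6.94% of all genes with such a p and a slope above 0. Dynlrb2, a dynein light chain gene, had 0.13 ± 0.032 (adjusted p = 0.128), and Foxj1, the factor that drives motile ciliogenesis, 0.09 ± 0.026 (adjusted p = 0.209). Tekt1 (0.12, adjusted p = 0.0461) and Capsl (0.15, adjusted p = 0.0471), which are on no list and were picked out after their values were seen, rose with Ttr. Of 10 meningeal fibroblast genes 0 passed, with a median of 0.08, all 10 slopes above 0 and 3 at an unadjusted p under 0.05. The lists for blood (5 genes), endothelium (7), cortical excitatory neurons (9), striatal projection neurons (9) and oligodendrocytes (6) had medians between -0.12 and 0.03. Slopes were above 0 for 0, 4, 1, 0 and 6 of their genes, in that order. An unadjusted p under 0.05 was seen for 2 striatal projection neuron genes, with slopes below 0, and 1 oligodendrocyte gene, with a slope above 0.

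**Figure D4:**
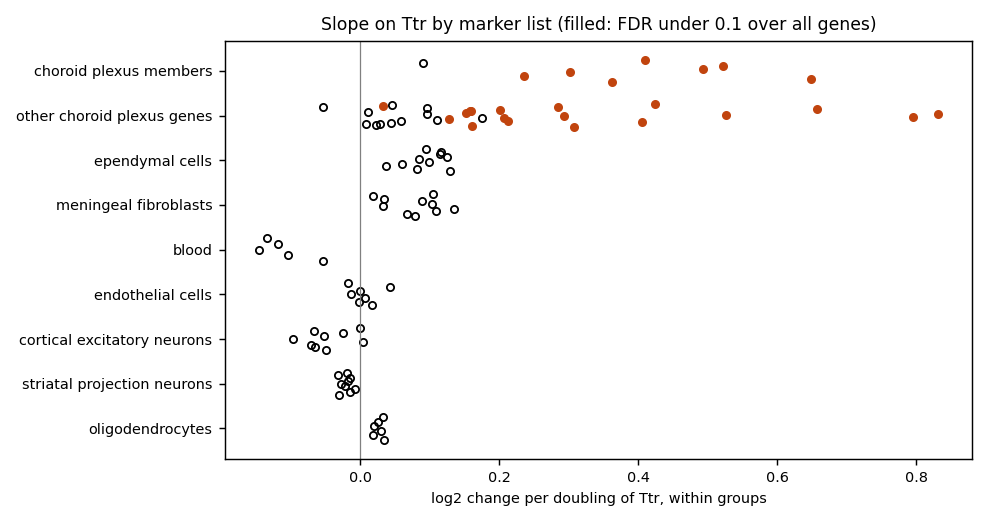
Log2 change per doubling of Ttr within groups (horizontal axis) for the genes of 9 marker lists, 1 circle per gene, filled where the adjusted p over all 14791 genes was under 0.1. Filled circles appear in the 2 choroid plexus lists, 7 of 8 and 18 of 30, and in none of the other 7.

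The genes most like the 9 over the 20 mice were found by Pearson's r with the mean standardized log2 CPM of the 9 genes, among 14783 others. The 10 with the highest r were Cldn2 (0.98), Kcne2 (0.97), Mfrp (0.96), Sostdc1 (0.96), Enpp2 (0.94), Calml4 (0.93), Gmnc (0.93), 1500015O10Rik (0.92), Slc2a12 (0.91) and Kcnj13 (0.91). All but Gmnc and Slc2a12 were on the list of other choroid plexus genes, which held 18 of the first 50, and none of the ependymal genes listed here was among those 50. Chosen after the ranks were seen, Gmnc, a regulator of multiciliated cells that is on none of the lists, and Tekt1, a gene of motile cilia ranking 36th (r = 0.79), were among them. Cldn2 ranged from 0.0398 to 4.54 CPM and Mfrp from 0.0244 to 8.14 CPM.

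The lines were compared to ask whether selection for activity went with more or less of this tissue in the sample. None of the 9 genes passed in High-Active against Control mice, averaged over treatments, where 2178 of all 14792 genes did (14.7%; edgeR's quasi-likelihood test, adjusted p under 0.1), and none had an unadjusted p under 0.05. All 9 estimates were above 0, with a median log2 fold change of 0.73 against 0.00 over all genes, but the genes vary together, so this is close to a single observation. Ttr had a log2 fold change of 1.15 ± 1.14 (SE, 95% interval -1.24 to 3.54, adjusted p = 0.555). Otx2 had 0.92 ± 0.457 (-0.03 to 1.88, adjusted p = 0.208), the smallest p of the 9. Clic6 had the narrowest interval, 0.13 (-0.32 to 0.58), and the remaining estimates lay between 0.45 (Tmem72) and 0.87 (Folr1). The estimate depended on mouse 487: without it Ttr had -0.40, Slc4a5 -0.47, Aqp1 -0.15, Folr1 -0.090, Clic6 -0.025 and Tmem72 -0.0047, and Tmem72 had -0.0098 without mouse 871. Without mouse 469 it moved the other way: the median over the 9 genes was 1.29, and Otx2 (1.22, adjusted p = 0.101) and Kl (1.07, adjusted p = 0.132) had an unadjusted p under 0.05, with none of the 9 called. The median was 1.10 without mouse 369 and 0.34 without mouse 871.

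Some marker genes of other cell types did differ between the lines in the same libraries. Of the 10 ependymal genes tested, 7 were higher in High-Active mice, and their summed level, over 12 genes, was 36.1 to 58.5 CPM in Control saline, 22.9 to 60.0 in Control amphetamine, 50.5 to 90.9 in High-Active saline and 25.8 to 105 in High-Active amphetamine mice. Of 9 cortical excitatory genes 4 were lower, with sums of 395 to 930, 708 to 930, 236 to 424 and 295 to 1050 CPM in the same order. Of 5 blood genes 1 was higher, and of 6 oligodendrocyte genes 2. In the meningeal fibroblast, endothelial and striatal projection neuron lists 0 genes passed. Over all 14792 genes 1122 were higher and 1056 lower. The part of these cell types in the values of the 9 choroid plexus genes was not tested. Of the 30 other choroid plexus genes tested only Ace passed, lower in High-Active mice by a log2 fold change of -0.51 ± 0.137 (adjusted p = 0.0307). Without mouse 469, 5 of them passed, Ace and 4 that were higher in High-Active mice: 1500015O10Rik (1.90), Krt18 (1.36), Col8a2 (0.90) and Col8a1 (0.87). The likelihood-ratio test called Col8a2 (0.61) beside Ace. The slope of Ace on Ttr did not pass, as given above. That of Col8a2 did, at 0.16 per doubling (edgeR's quasi-likelihood test, adjusted p = 0.0230).

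Amphetamine was compared with saline to ask the same of the treatment. None of the 9 genes passed, nor did any other gene: 0 of 14792 (0%) by edgeR's quasi-likelihood test, with 1825 at an unadjusted p under 0.05, none of them among the 9. DESeq2 called 391 genes and edgeR's likelihood-ratio test with robust dispersions 466. All 9 estimates were below 0, with a median of -0.51 against -0.01 over all genes, from -1.10 ± 1.14 for Ttr (95% interval -3.49 to 1.28, adjusted p = 0.748) and -0.97 for Aqp1 to -0.29 for Clic6. The likelihood-ratio test gave Ttr -2.01 with an adjusted p of 0.0197, the only call of any of the 9 genes for line, amphetamine or their interaction among the alternatives run. The study's methods also describe robust dispersions. The study, however, reported fewer genes for amphetamine and for line, and more for the interaction, than this test called here. By this test 5 of the 9 genes had an unadjusted p under 0.05 for amphetamine and 3 for line. Without mouse 469 the estimates were 0.087 for Kl, 0.035 for Folr1, 0.055 for Slc4a5 and 0.40 for F5, and without mouse 871 F5 had 0.048 and Tmem72 0.0059. Without mouse 487 the estimates were larger, with a median of -1.06, -2.65 for Ttr (adjusted p = 0.326) and -1.82 for Aqp1 (adjusted p = 0.219), and 6 of the 9 genes had an unadjusted p under 0.05, with none called. The estimate for Ttr ran from -2.65 to -0.28 over the 20 fits that each left out 1 mouse, and the median over the 9 genes was -1.01 without mouse 369, -0.23 without mouse 871 and -0.019 without mouse 469.

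**Figure D5:**
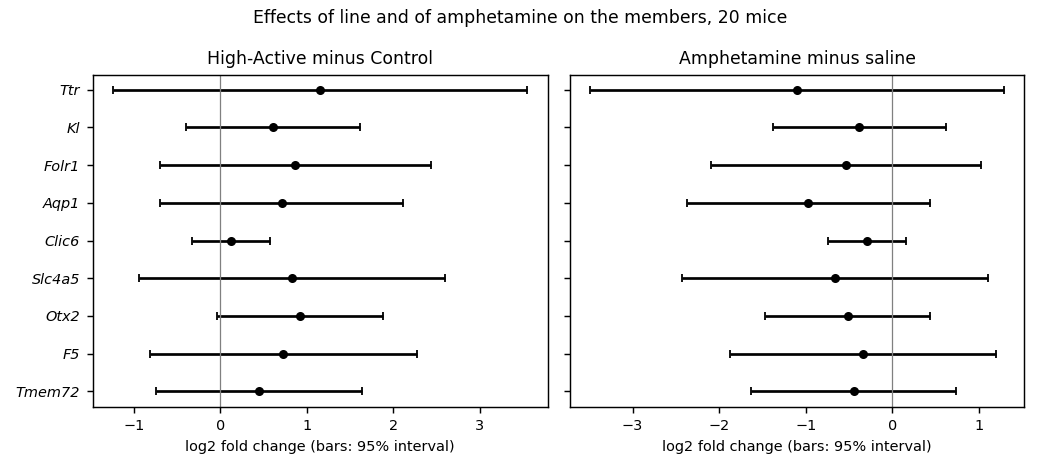
Log2 fold change with its 95% interval (edgeR, 20 mice) of each of the 9 genes for High-Active minus Control, averaged over treatments, and for amphetamine minus saline, averaged over lines. Every interval includes 0, and Ttr has the widest, from -1.24 to 3.54 for line.

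The difference between the amphetamine responses of the lines was not resolved for these genes. By edgeR's quasi-likelihood test 0 of 14792 genes passed (0%), with 446 at an unadjusted p under 0.05, against 0 with DESeq2 and 6 with the likelihood-ratio test. For Ttr the estimate was 0.97 with a 95% interval of -3.76 to 5.71, and even for Clic6, the steadiest gene, the interval was -0.89 to 0.91. With Ttr held constant as a covariate, 2113 genes passed for line in place of 2178, and 2000 were shared, 91.8% of the calls without the covariate and 94.7% of those with it. For amphetamine and for the interaction 0 passed (1701 and 492 at an unadjusted p under 0.05). None of the other 8 choroid plexus genes passed in any of these 3 comparisons with Ttr held constant.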

How the data were processed

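Per the labels and the study's methods, the authors made stranded libraries from DNase-treated RNA, sequenced them as paired reads, and aligned them to GRCm38 with TopHat2 2.0.10 and Bowtie2 2.1.0. The deposited values are whole-number counts per Ensembl gene and mouse from HTSeq 0.6.1, not normalized, and the strand setting of the counting is not given in the sources used here. Between 16.0% and 17.5% of reads were not assigned to a single gene and were left out of library sizes. Symbols were matched for 37607 of 39179 identifiers, and positions and merged exon lengths come from the GENCODE annotation of GRCm38.

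CPM divides by all counts on genes, and log2 CPM adds a prior count of 2. Counts of the 14792 genes above 1 CPM in at least 3 mice were scaled by TMM and compared with edgeR 4.0.16 (quasi-likelihood test, a mean for each of 4 groups, R 4.3.3), with Benjamini-Hochberg adjustment within each effect and a threshold of 0.1. The fit was tested on simulated data. Alternatives were RLE scaling, no filter, 5 mice in the filter, DESeq2 1.42.0, the likelihood-ratio test, limma-voom 3.58.1 with a block for family, subsets of mice, counts summed by family and each mouse left out. The fits on Ttr and those without the 4 mice with the most Ttr were added after the data were seen. Intervals of counts are exact Poisson or Clopper-Pearson intervals. No label says whether dissection or extraction was done in batches.

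The 9 genes and all marker lists were chosen with earlier results of these data known. Named were all 9 genes, other choroid plexus genes that passed in a line or treatment comparison or were the 5 most abundant, and the 10 genes most like the 9. Kcne2 was named for its slope after it was seen, and also stands among these 10.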

Additional observations from a re-analysis of the deposited data

Results flagged for a closer look

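In groups of 5 mice, 4 of 40 combinations of group and gene or summed level had 1 mouse set apart from the rest by more than 0.71 of the group's range (Dixon's test), where chance gives about 1 in 20. In the High-Active amphetamine group mouse 487 stood above the other 4 mice for Aqp1, at 1.80 log2 CPM, for Slc4a5, at 2.57 log2 CPM, and for F5, at 4.10 log2 CPM. In the Control saline group mouse 469 stood above the others for Otx2, at 2.16 log2 CPM. Both mice had the most Ttr of their group.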

How the results depend on the processing

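Animal numbers are not shared between groups and pair no mice. Family was fitted as a block in limma-voom (correlation 0.0266), which called 1890 genes for line, 0 for amphetamine and 0 for the interaction, and none of the 9 genes.

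Against 2178 genes called for line, 501 were called in saline mice only, 117 in amphetamine mice only, 600 with counts summed by family, and 1381 to 2535 with single mice left out (1400, 1405 and 1381 without mouse 883, 871 and 415). Against 0 for amphetamine, DESeq2 called 391, the likelihood-ratio test 466 (1 of the 9 genes, Ttr) and single left-out mice 0 to 339 (128, 20, 3, 33 and 339 without mouse 411, 883, 457, 197 and 415). For the interaction the likelihood-ratio test called 6 and left-out mice 0 to 1. Against 86 genes that changed with Ttr, DESeq2 called 357 (all 8 of the other genes) and left-out mice 33 to 189. Without the 4 mice with the most Ttr, 3 genes were called when the filter was applied again (1 of the 4 choroid plexus genes left) and 8 with the same genes tested (3 of 8). The r of Clic6 with Ttr was 0.59 in Control mice, 0.61 in High-Active mice, 0.46 without the 2 farthest mice and 0.37 without the highest 4, and that of Otx2 0.57 in Control mice and 0.38 without the highest 4.

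Signs turned, with no call, with Ttr as a covariate for amphetamine (Kl 0.076, Slc4a5 0.069, F5 0.31, Tmem72 0.088) and the interaction (Kl -0.43, Aqp1 -0.055, Clic6 -0.13, Slc4a5 -0.28). The likelihood-ratio test turned the interaction of Ttr (-0.85), Kl (-0.51), Aqp1 (-0.83), Clic6 (-0.20), Slc4a5 (-1.42) and F5 (-0.29), and limma-voom that of Kl (-0.13) and Clic6 (-0.085). With single mice left out, line estimates ran from -0.40 to 1.97 (Ttr), -0.090 to 1.49 (Folr1), -0.15 to 1.29 (Aqp1), -0.025 to 0.23 (Clic6), -0.47 to 1.55 (Slc4a5) and -0.0098 to 0.87 (Tmem72). Amphetamine estimates ran from -0.74 to 0.087 (Kl), -1.49 to 0.035 (Folr1), -1.96 to 0.055 (Slc4a5), -1.06 to 0.40 (F5) and -0.90 to 0.0059 (Tmem72). Interaction estimates ran from -2.13 to 2.56 (Ttr), -0.93 to 0.62 (Kl), -2.08 to 1.07 (Folr1), -1.20 to 1.39 (Aqp1), -0.29 to 0.18 (Clic6), -1.78 to 1.68 (Slc4a5), -1.18 to 0.041 (Otx2), -0.98 to 1.83 (F5) and -0.50 to 1.30 (Tmem72). The causes were not tested. Only 5 of the 9 genes passed the filter in the fits of amphetamine mice or Control mice alone. At these depths Folr1 and Slc4a5 rest on as few as 2 counts in a mouse.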
